A study of Mus musculus with 10 samples.

Results

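Cholesterol is made from acetyl-CoA through mevalonate, farnesyl diphosphate, squalene and lanosterol, and the genes of nearly every step are switched on together by the transcription factor SREBP2. SREBP2 is held in the endoplasmic reticulum by the escort protein Scap and the retention proteins Insig1 and Insig2 while sterols are abundant, and is carried to the Golgi and cut free when they fall. The liver makes much of the body's cholesterol, takes up lipoproteins from blood and secretes sterols into bile, and hepatocytes carry out most of this work. The 27 genes described here are 20 enzymes of the pathway (19 on the way to cholesterol and Ggps1 on the side branch to longer isoprenoids), 4 genes of SREBP2 control (Srebf2, Scap, Insig1 and Insig2) and 3 of sterol transport and uptake (Stard4, Mylip and Npc1l1). They were taken by gene symbol from a table of 55291 genes, by a rule that uses the genes' known roles and no measured value.

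The livers came from female mice aged 16 to 20 weeks that carry a Cas9 gene kept silent by a floxed stop cassette. All mice, controls included, received an adeno-associated virus (AAV8) that brings a guide RNA and a Cre gene driven by the Tbg promoter. This promoter is active in hepatocytes, so that editing is aimed at these cells. Bulk RNA does not show Bap1 by cell type, and the paper reports that editing of Bap1 in liver tissue was partial. Bap1 encodes a deubiquitinase. The guide was either non-targeting (NTC) or directed at Bap1 (sgBap1), and 10 days later the mice were injected with carbon tetrachloride (CCl4), a solvent that hepatocytes around the central vein turn into a toxic radical, or with its vehicle, olive oil. Livers were taken 48 hours after the injection, and RNA came from the right lobe, which gave 2 livers for each guide with vehicle (NTC-Veh and sgBap1-Veh) and 3 for each guide with CCl4 (NTC-CCl4 and sgBap1-CCl4). The design asks what CCl4 injury does to a liver with and without the guide, what the guide does with and without injury, and whether the responses to CCl4 differ between the guides.

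Levels are normalized library shares (CPM, the usual abbreviation for counts scaled to a fixed library size), given per liver or as the mean ± SD, and a difference between groups is a log2 fold change with its standard error (SE). A gene is called changed when the adjusted p of edgeR's quasi-likelihood test is under 0.05, after Benjamini-Hochberg adjustment over the 17015 genes tested. The deposited estimated counts summed to 3.30e+07 to 5.22e+07 per liver, and the floor of detection, set at 3 counts, was 0.0511 to 0.112 CPM. The floor reflects counting error alone. Of the 27 members, 26 were tested. Npc1l1, the intestinal and biliary cholesterol transporter, had 0 to 5 counts per liver and was not tested. Bap1 itself measured 34.8 CPM in both NTC-Veh livers and 17.6 and 19.5 CPM in the sgBap1-Veh livers, and 29.5 to 31.5 CPM in NTC-CCl4 against 17.0 to 21.8 CPM in sgBap1-CCl4 livers, with no overlap between guides. The log2 fold change of Bap1 was -0.91 (SE 0.12, adjusted p = 0.0172) in vehicle livers, a call lost, with all others of that comparison, without the second NTC-Veh or the first sgBap1-Veh liver (0 genes called). In CCl4 livers it was -0.65 (SE 0.09, adjusted p = 0.0307). This call too was lost without the first NTC-CCl4 liver and when replicate numbers were fitted as a block, where 0 genes were called lower.

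Per kilobase of exon, Hmgcs1 stood highest of the members in NTC-Veh livers at 354.8 ± 108 CPM per kb (SD, n = 2). This scale allows a rough ranking of genes against each other. The length counts all annotated exons of a gene and can exceed that of the transcripts present. Idi1 followed at 242 ± 95.4 CPM per kb, Sc5d at 235 ± 31.4 and Insig1 at 178 ± 27.6 CPM per kb, and the SDs of neighbours in this order overlap. Lbr (3.20 ± 0.31 CPM per kb), Mylip (2.76 ± 0.42) and Ggps1 (2.41 ± 0.11) were the lowest members above the floor. In sgBap1-CCl4 livers Hmgcs1 was still first but at 77.6 ± 52.7 CPM per kb (n = 3), followed by Sc5d at 70.9 ± 24.4 and Ebp at 61.8 ± 7.65 CPM per kb, whose spreads overlap.

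CCl4 lowered most genes of the pathway in livers with the control guide. Of the 26 tested members 21 fell, 1 rose (Lbr) and 4 were not called (Cyp51, Ggps1, Insig2 and Mylip), against 26.3% of all tested genes called lower and 27.5% called higher in this comparison. The median log2 fold change of the members was -1.15, beside 0.03 over all tested genes. In 23 of 26 members every NTC-CCl4 liver lay below every NTC-Veh liver, a pattern that 35.0% of all tested genes showed. All 7 enzymes from Acat2 to Fdps fell, as did the 3 that make squalene and lanosterol and 7 of the 9 that turn lanosterol into cholesterol. The count fell to 10 without the second NTC-Veh liver, in which 24 of the 26 members were higher than in the first (median log2 ratio 0.40, against -0.01 over all genes), and the 10 members that kept their call in each of the 18 other settings tried were Acat2, Mvd, Fdft1, Tm7sf2, Lbr, Ebp, Sc5d, Scap, Insig1 and Stard4.

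In sgBap1 livers the response to CCl4 had the same shape. Of the 26 tested members 20 fell, 1 rose (Lbr) and 5 were not called (the same 4 and Srebf2), against 27.7% of all tested genes called lower and 29.0% called higher. The median was -1.33 for the members and 0.04 for all tested genes, and 20 of 26 members fell without overlap between the groups, a pattern seen in 34.9% of all tested genes. Leaving out the second sgBap1-Veh liver lowered the count of calls to 11, and leaving out the second sgBap1-CCl4 liver left 18. The 10 members named above, with Pmvk, kept their call in each of the 18 other settings.

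**Figure D1:**
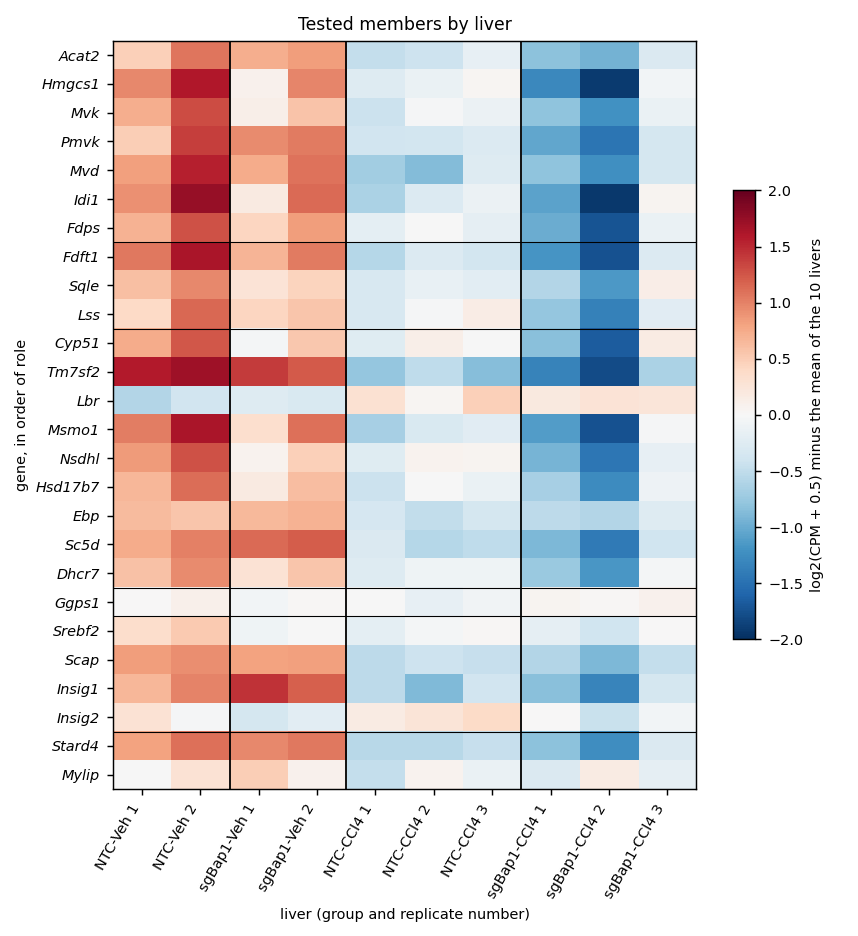
Heat map of the 26 tested members (rows, in order of role, with lines between roles) in the 10 livers (columns, grouped by guide and treatment). Colour is log2(CPM + 0.5) minus that gene's mean over the 10 livers, red above and blue below it. Most rows pass from red in the 4 vehicle livers to blue in the 6 CCl4 livers, Lbr runs the other way, Ggps1 and Mylip show little colour, and sgBap1-CCl4 liver 2 is the darkest blue column.

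Markers of the cells that carry the pathway moved at the same time. The summed level of 6 hepatocyte markers was 104200 to 149100 CPM in vehicle and 65700 to 85460 CPM in CCl4 livers (5 of 6 fell in NTC and 2 of 6 in sgBap1 livers), and that of 5 pericentral hepatocyte markers, all called lower, was 10780 to 14350 CPM in vehicle and 558 to 968 CPM in CCl4 livers. All 5 markers of dividing cells rose, from sums of 6.54 to 13.6 CPM to sums of 173 to 322 CPM, and the 6 Kupffer cell and macrophage markers summed to 200.2 to 597 CPM in vehicle and 768 to 1031 CPM in CCl4 livers. Of these 6, 4 rose in NTC livers, while in sgBap1 livers 2 rose and 1 fell. The 4 periportal hepatocyte markers all fell under both guides, from sums of 3887 to 6241 CPM to sums of 1514 to 2599 CPM. None of these markers was at 0 in any liver. In bulk liver, fewer cells of a type and less RNA per cell cannot be told apart, and the part of these shifts in the fall of the pathway was not tested. The member median lay below that of the hepatocyte markers in both responses (-0.81 in NTC and -0.54 in sgBap1 livers for the 6 markers) and above those of the pericentral (-4.21 and -3.77) and periportal markers (-2.03 and -1.85).

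The promoters of 4 of the members that carry sequence motifs known from sterol regulation are shown because SREBP2 binds sterol regulatory elements beside the factor NF-Y. RefSeq windows from 250 bases before to 50 after a gene's start (GRCm38.p6) were found for 23 of the 27 members, all but Fdps, Fdft1, Sqle and Stard4. The element's letters TCACCCCAC, on either strand, occurred in 1 of the 23 (Hmgcs1) and in 0.614% of all 27025 genes, and the looser TCACNCNAC, which includes the former, in 2 of 23 (Hmgcs1 and Nsdhl) and 3.15% of genes. The NF-Y box CCAAT was found in 21 of 23 members (91.3%), all but Acat2 and Scap, and in 41.1% of all genes, and Hmgcs1 held 4, of which the 3 before its start are printed. The E-box CACGTG was found in 5 of 23 members (Hsd17b7, Insig1, Dhcr7, Sc5d and Scap) and in 8.09% of all genes. These are matches of letters, not measured binding. The stretches below lie before the annotated gene and are written in the direction of transcription, with the letters of these motifs, on either strand, in capitals.
Hmgcs1 (chr13:119690101-119690350, + strand): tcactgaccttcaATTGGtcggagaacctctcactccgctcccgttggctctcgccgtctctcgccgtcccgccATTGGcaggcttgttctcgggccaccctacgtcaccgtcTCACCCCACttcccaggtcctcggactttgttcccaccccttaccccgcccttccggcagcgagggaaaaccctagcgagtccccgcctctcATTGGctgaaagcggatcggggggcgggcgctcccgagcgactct
Nsdhl (chrX:72918271-72918520, + strand): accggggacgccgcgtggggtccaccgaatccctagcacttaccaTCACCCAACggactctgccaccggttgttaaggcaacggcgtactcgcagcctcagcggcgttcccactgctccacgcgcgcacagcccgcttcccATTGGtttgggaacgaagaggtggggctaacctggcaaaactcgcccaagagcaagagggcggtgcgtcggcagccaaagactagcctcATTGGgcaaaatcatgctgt
Sc5d (chr9:42264301-42264550, - strand): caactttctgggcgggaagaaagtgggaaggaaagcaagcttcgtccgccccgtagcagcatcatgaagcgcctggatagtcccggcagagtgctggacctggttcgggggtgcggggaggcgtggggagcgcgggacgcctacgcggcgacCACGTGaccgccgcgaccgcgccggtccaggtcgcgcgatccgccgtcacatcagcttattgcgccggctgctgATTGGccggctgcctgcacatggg
Insig1 (chr5:28071162-28071361, + strand): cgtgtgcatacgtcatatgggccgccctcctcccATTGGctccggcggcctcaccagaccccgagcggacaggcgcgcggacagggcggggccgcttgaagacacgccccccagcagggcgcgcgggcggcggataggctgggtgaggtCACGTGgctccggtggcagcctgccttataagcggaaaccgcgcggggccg
In Hmgcs1 the element lies 137 bases before the start, between NF-Y boxes 176 and 45 bases before it. Nsdhl has the looser form 205 bases before its start, and in Sc5d and Insig1 an E-box lies 98 and 101 bases before the start. The transcripts of all 4 genes fell with CCl4 under both guides. The NF-Y box was also found in Lbr, which rose, and in Cyp51, Ggps1, Insig2 and Mylip, which were not called. Acat2 and Scap, in which it was not found, fell under both guides. Whether the motifs have a part in the fall was not tested.

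Hmgcs1, the HMG-CoA synthase that feeds the pathway (ENSMUSG00000093930.2, chromosome 13, 119690379 to 119708260), measured 1277 and 1982 CPM in the NTC-Veh livers and 692 and 1282 CPM in the sgBap1-Veh livers. After CCl4 it measured 549.6, 595 and 673 CPM in NTC livers and 266, 172.5 and 631 CPM in sgBap1 livers. All CCl4 livers lay below all vehicle livers, and the third sgBap1-CCl4 liver was near the NTC-CCl4 livers while the second was far below them. The fall was -1.43 in NTC (SE 0.50, adjusted p = 0.0412) and -1.47 in sgBap1 livers (SE 0.50, adjusted p = 0.0353) on the log2 scale. With this spread the call was lost in NTC livers without any 1 of the 5 livers compared (adjusted p = 0.0585 to 0.216) and in sgBap1 livers without the second sgBap1-Veh liver, the second NTC-CCl4 liver, or the first or second sgBap1-CCl4 liver (0.0504 to 0.239). 

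Mvd, the decarboxylase that ends the mevalonate steps (ENSMUSG00000006517.5, chromosome 8, 122433601 to 122443422), fell from 65.3 and 108 CPM to 22.6, 20.01 and 30.6 CPM in NTC livers. In sgBap1 livers it was at 62.1 and 78.2 CPM with vehicle and 20.8, 15.4 and 28.6 CPM with CCl4. No CCl4 liver reached a vehicle liver, and Mvd stood at 0.281 times its vehicle level in NTC (log2 -1.83, SE 0.30, adjusted p = 0.00105) and 0.308 times in sgBap1 livers (log2 -1.70, SE 0.30, adjusted p = 0.00151). Idi1, the isomerase that readies the isoprene units for joining (ENSMUSG00000058258.14, chromosome 13, 8885501 to 8892451), measured 612 and 1085 CPM in NTC-Veh, 367 and 705 CPM in sgBap1-Veh, 208, 267 and 297 CPM in NTC-CCl4 and 153.5, 84.4 and 334 CPM in sgBap1-CCl4 livers. Its vehicle levels spread widely and its log2 changes of -1.72 in NTC (SE 0.54, adjusted p = 0.0275) and -1.49 in sgBap1 livers (SE 0.54, adjusted p = 0.0453) had the largest SE of any member. The Idi1 call in NTC livers was lost without the second NTC-Veh liver or any 1 of the NTC-CCl4 livers, and in sgBap1 livers it was lost in 8 of the 10 fits that leave out a liver. Of the 50-base stretches of Idi1, 17.7% also occur in Gm13502, so that reads could be split between them.

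**Figure D2:**
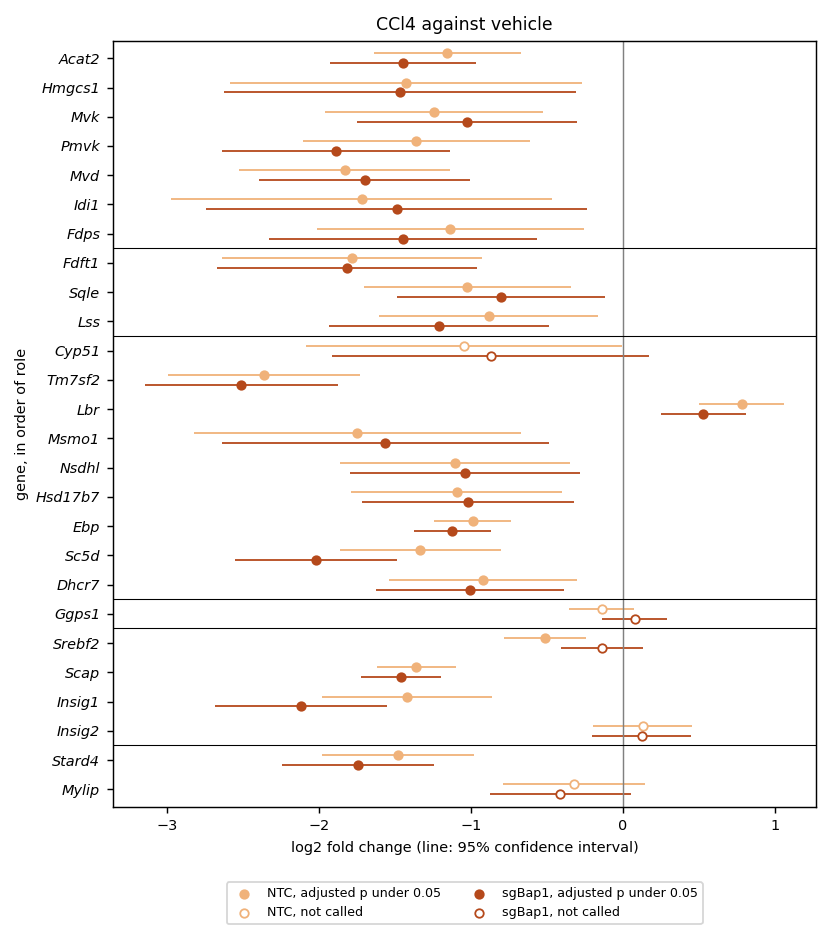
Log2 fold change of CCl4 against vehicle for the 26 tested members (rows, in order of role) in NTC (light) and sgBap1 livers (dark), with 95% confidence intervals. Filled points have an adjusted p under 0.05. Tm7sf2 lies farthest left in both (-2.36 and -2.51), Lbr is the filled pair to the right of 0 (0.78 and 0.53), and Cyp51, Ggps1, Insig2 and Mylip are open under both guides.

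The other 4 enzymes up to farnesyl diphosphate moved the same way. Acat2, the thiolase of the first step, fell by 1.16 in NTC (SE 0.22) and by 1.45 in sgBap1 livers (SE 0.22) on the log2 scale, although 39.1% of its 50-base stretches are shared with Acat3. The kinases Mvk and Pmvk fell by 1.24 (SE 0.31) and 1.36 (SE 0.33) in NTC livers, and by 1.03 (SE 0.32) and 1.89 (SE 0.33) in sgBap1 livers. Fdps, the farnesyl diphosphate synthase, fell by 1.14 (SE 0.39) and 1.45 (SE 0.39), and 26.2% of its stretches are shared with other genes, mostly Gm43738. The calls of Mvk, Pmvk and Fdps in NTC livers were lost without the second NTC-Veh liver (adjusted p = 0.0759 to 0.214), and those of Mvk and Fdps in sgBap1 livers without the second sgBap1-Veh liver (0.0783 to 0.15). Fdps also lost its NTC call without any 1 of the NTC-CCl4 livers, and Mvk its sgBap1 call without the first or second sgBap1-CCl4 liver.

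Fdft1, squalene synthase, commits farnesyl diphosphate to sterols (ENSMUSG00000021273.10, chromosome 14, 63145150 to 63179578). It measured 331 and 495 CPM in NTC-Veh livers and 107, 131 and 122 CPM in NTC-CCl4 livers. With sgBap1 it measured 254 and 328 CPM with vehicle and 69.8, 47.0 and 131 CPM with CCl4. The groups did not overlap under either guide, and the fall was close in size under both (log2 -1.78, SE 0.37, adjusted p = 0.00376 in NTC and -1.82, SE 0.38, adjusted p = 0.00326 in sgBap1 livers). Sqle, squalene epoxidase, fell less, by 1.02 in NTC (SE 0.30, adjusted p = 0.0178) and by 0.80 in sgBap1 livers (SE 0.30, adjusted p = 0.0464). Lss, lanosterol synthase, fell by 0.88 (SE 0.32, adjusted p = 0.042) and 1.21 (SE 0.32, adjusted p = 0.0104). Sqle lost its NTC call without the second NTC-Veh or the first NTC-CCl4 liver and its sgBap1 call in 9 of the 10 fits that leave out a liver. Lss lost its NTC call in 7 of 10 such fits and its sgBap1 call without the second sgBap1-Veh liver.

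The steps after lanosterol held both the largest fall and the only rise. Tm7sf2 (ENSMUSG00000024799.16, chromosome 19, 6062821 to 6068373) and Lbr (ENSMUSG00000004880.11, chromosome 1, 181815335 to 181843046) both encode sterol reductases that act on the product of Cyp51. Tm7sf2 is an enzyme of the endoplasmic reticulum, while Lbr, the lamin B receptor, is a protein of the inner nuclear membrane that also binds lamin and chromatin. Tm7sf2 measured 216 and 233 CPM in NTC-Veh and 190.5 and 168 CPM in sgBap1-Veh livers. After CCl4 it was at 41.7, 50.04 and 39.2 CPM in NTC and 28.2, 20.3 and 45.8 CPM in sgBap1 livers. No CCl4 liver came near a vehicle liver, and Tm7sf2 fell to 0.195 times in NTC (log2 -2.36, SE 0.28, adjusted p = 0.000119) and 0.175 times in sgBap1 livers (log2 -2.51, SE 0.28, adjusted p = 7.97e-05). Tm7sf2 shares 9.87% of its 50-base stretches with Vps51, which overlaps it on the same strand.

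Lbr, described liver by liver after its value was seen, measured 14.2 and 16.3 CPM in NTC-Veh and 17.9 and 17.2 CPM in sgBap1-Veh livers. It stood at 26.7, 21.9 and 29.9 CPM in NTC-CCl4 and at 24.5, 26.1 and 25.4 CPM in sgBap1-CCl4 livers. All 6 CCl4 livers were above all 4 vehicle livers, and Lbr rose 1.72-fold in NTC (log2 0.78, SE 0.13, adjusted p = 0.000475) and 1.44-fold in sgBap1 livers (log2 0.53, SE 0.13, adjusted p = 0.00472). The CPM of Tm7sf2 was 14.3 to 15.2 times that of Lbr in NTC-Veh and 9.72 to 10.6 times in sgBap1-Veh livers. In NTC-CCl4 livers this ratio was 1.31 to 2.28, and in sgBap1-CCl4 livers 0.776 to 1.80. Neutrophil markers rose with Lbr (3 of 3 tested under both guides, with sums over 4 markers of 5.13 to 10.8 CPM in vehicle livers, where 0 or 1 of them was at 0, and 24.7 to 34.4 CPM in CCl4 livers), as did the dividing cell markers above, and their part in the rise of Lbr was not tested.

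Msmo1, the sterol methyl oxidase (ENSMUSG00000031604.10, chromosome 8, 64718139 to 64733792), fell from 395 and 606 CPM to 123, 157 and 167 CPM in NTC livers. In sgBap1 livers it measured 245 and 421 CPM with vehicle and 89.5, 57.7 and 191 CPM with CCl4. The groups were apart under both guides (log2 -1.75, SE 0.47, adjusted p = 0.0133 in NTC and -1.56, SE 0.47, adjusted p = 0.0207 in sgBap1 livers), but the call was lost in NTC without the second NTC-Veh liver (adjusted p = 0.0939) and in sgBap1 livers without the second sgBap1-Veh (0.151) or the first sgBap1-CCl4 liver (0.0617). The desaturase Sc5d fell by 1.34 (SE 0.24, adjusted p = 0.000938) in NTC and by 2.02 (SE 0.24, adjusted p = 6.34e-05) in sgBap1 livers. The isomerase Ebp fell by 0.99 (SE 0.11, adjusted p = 5.05e-05) and 1.12 (SE 0.11, adjusted p = 2.09e-05). Nsdhl and Hsd17b7, which complete the removal of the methyl groups, fell by 1.11 and 1.09 in NTC and by 1.04 and 1.02 in sgBap1 livers, with SEs of 0.30 to 0.33. Dhcr7, the last reductase of a route to cholesterol, fell by 0.92 (SE 0.27) and 1.00 (SE 0.27). The calls of Nsdhl, Hsd17b7 and Dhcr7 were lost in NTC without the second NTC-Veh liver (adjusted p = 0.111 to 0.135) and in sgBap1 without the second sgBap1-Veh liver (0.0819 to 0.159). In NTC livers Nsdhl and Dhcr7 were also lost without the first NTC-CCl4 liver, and in sgBap1 livers Nsdhl and Hsd17b7 without the first sgBap1-CCl4 liver.

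Cyp51, the lanosterol demethylase, missed the threshold in NTC livers (log2 -1.05, SE 0.45, adjusted p = 0.0828) and in sgBap1 livers (log2 -0.87, SE 0.45, adjusted p = 0.136). Its 95% intervals ran from -2.09 to -0.01 in NTC and from -1.91 to 0.17 in sgBap1 livers, so a fall as large as that of its neighbours was within them. Cyp51 overlaps Akap9 on the other strand, as 9 other members overlap a gene (Hmgcs1, Mvd, Idi1, Fdft1, Lss, Lbr, Ggps1, Scap and Insig2), and since the strand setting of the quantification is not given, such members may share reads with that gene. Cyp51 was called in NTC livers when only the 2 groups compared were fitted (adjusted p = 0.00117) and in the fits without the second or without the third sgBap1-CCl4 liver (0.023 and 0.0115), and in sgBap1 livers without the third sgBap1-CCl4 liver (0.00386). Ggps1, which makes geranylgeranyl diphosphate on the side branch, stayed between 9.71 and 11.8 CPM in all 10 livers, with log2 fold changes of -0.14 (95% interval -0.35 to 0.07) and 0.08 (-0.14 to 0.29), and rose under both guides when scaled by library size alone (0.33 and 0.56).

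Among the regulators, Scap gave the tightest result. Scap, the escort of SREBP2 (ENSMUSG00000032485.14, chromosome 9, 110333288 to 110384950), measured 204 and 219 CPM in NTC-Veh and 199 and 202 CPM in sgBap1-Veh livers. After CCl4 it was at 79.0, 85.4 and 82.8 CPM in NTC and 75.8, 60.8 and 81.8 CPM in sgBap1 livers. The 2 treatments were far apart and the guides close together, with a fall to 0.389 times in NTC (log2 -1.36, SE 0.12, adjusted p = 8.72e-06) and 0.363 times in sgBap1 livers (log2 -1.46, SE 0.12, adjusted p = 5.43e-06), the smallest adjusted p among the members in both comparisons.

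Insig1 and Insig2 encode closely related retention proteins, of which Insig1 is itself an SREBP2 target. Insig1 (ENSMUSG00000045294.11, chromosome 5, 28071363 to 28078662) measured 491 and 612 CPM in NTC-Veh and 846 and 711 CPM in sgBap1-Veh livers. It fell to 214, 168 and 236 CPM in NTC-CCl4 and 173, 123 and 241 CPM in sgBap1-CCl4 livers. Its vehicle levels were higher with sgBap1 in every liver and its CCl4 levels overlapped, and the log2 changes were -1.42 in NTC (SE 0.25, adjusted p = 0.000956) and -2.12 in sgBap1 livers (SE 0.25, adjusted p = 7.47e-05). Insig2 (ENSMUSG00000003721.14, chromosome 1, 121304353 to 121332589) measured 137 and 111 CPM in NTC-Veh and 88.3 and 97.0 CPM in sgBap1-Veh livers. With CCl4 it measured 126, 135 and 147 CPM in NTC and 113, 82.2 and 108 CPM in sgBap1 livers. The Insig2 groups overlapped under both guides, with log2 fold changes of 0.13 (95% interval -0.19 to 0.46, adjusted p = 0.481) and 0.12 (-0.20 to 0.45, adjusted p = 0.493), and it was called higher under both guides when scaled by library size alone (0.61 and 0.60). As a result the CPM of Insig1 was 3.58 to 9.58 times that of Insig2 in the 4 vehicle livers and 1.25 to 2.23 times in the 6 CCl4 livers.

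Srebf2, the gene of SREBP2 itself (ENSMUSG00000022463.8, chromosome 15, 82147181 to 82205379), measured 107 and 121 CPM in NTC-Veh and 78.8 and 83.7 CPM in sgBap1-Veh livers. In NTC-CCl4 livers it measured 73.3, 81.7 and 84.8 CPM and in sgBap1-CCl4 livers 74.0, 63.4 and 84.3 CPM. Only the NTC-Veh livers stood apart, above the other 8. Srebf2 fell by 0.52 on the log2 scale in NTC livers (SE 0.12, adjusted p = 0.00467), a call lost without the second NTC-Veh liver (adjusted p = 0.0534). Its value in sgBap1 livers was -0.14 (SE 0.12, adjusted p = 0.362). Scaled by library size alone, Srebf2 was at -0.04 in NTC livers (adjusted p = 0.752) and at 0.34 in sgBap1 livers (adjusted p = 0.0252).

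**Figure D3:**
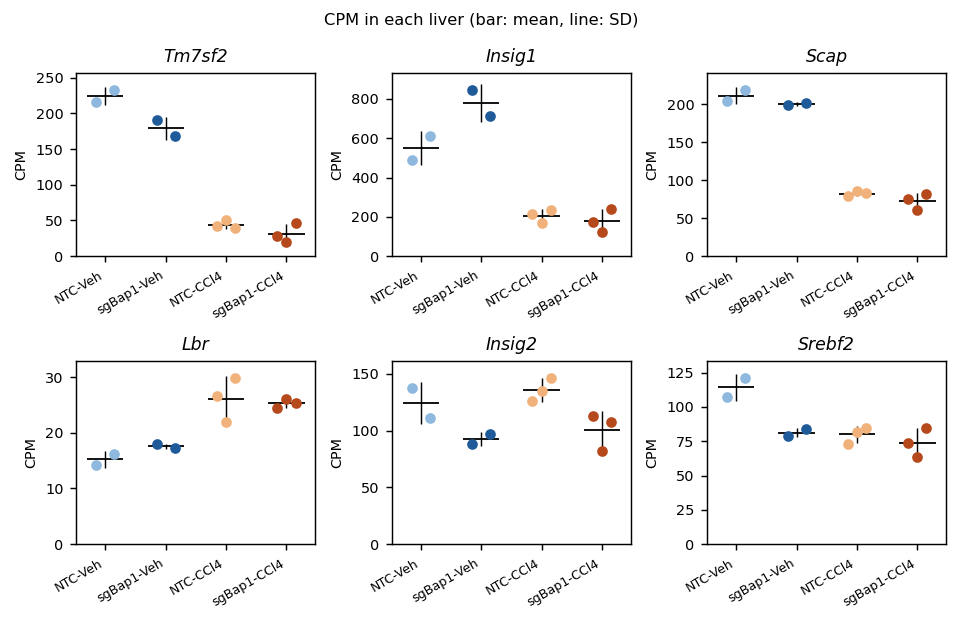
CPM of Tm7sf2, Insig1, Scap, Lbr, Insig2 and Srebf2 in each of the 10 livers (points) by group, with the mean (bar) and SD (line), each vertical axis starting at 0. The CCl4 livers of Tm7sf2, Insig1 and Scap lie below all vehicle livers and those of Lbr above them, whereas Insig2 overlaps and Srebf2 is highest in the 2 NTC-Veh livers (107 and 121 CPM).

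Stard4, a carrier that moves cholesterol between membranes and an SREBP2 target (ENSMUSG00000024378.9), measured 213 and 262 CPM in NTC-Veh and 237 and 254 CPM in sgBap1-Veh livers. It was at 83.1, 83.0 and 89.0 CPM in NTC-CCl4 and at 68.8, 51.2 and 100.3 CPM in sgBap1-CCl4 livers. The groups were well apart (log2 -1.48, SE 0.22, adjusted p = 0.000371 in NTC and -1.74, SE 0.22, adjusted p = 0.000125 in sgBap1 livers). Mylip, an E3 ligase that limits lipoprotein uptake and is a target of the sterol-activated LXR receptors (ENSMUSG00000038175.10, chromosome 13, 45389742 to 45412022), measured 7.98 and 9.89 CPM in NTC-Veh and 11.4 and 8.53 CPM in sgBap1-Veh livers. With CCl4 it measured 5.65, 8.45 and 7.29 CPM in NTC and 6.50, 9.02 and 7.04 CPM in sgBap1 livers. These groups overlapped, and neither log2 fold change was called (-0.32, 95% interval -0.79 to 0.14, and -0.41, -0.88 to 0.05), although Mylip passed the threshold in sgBap1 livers without the second sgBap1-CCl4 liver (-0.56, adjusted p = 0.0464), and both values were above 0 when scaled by library size alone (0.14 and 0.08).

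The effect of the guide without injury was smaller. Between sgBap1-Veh and NTC-Veh livers 0 of the 26 members were called, where 0.523% of all tested genes were. At an unadjusted p under 0.05 there were 2 of 26 members, against 12.6% of all tested genes. They were Srebf2 (log2 -0.49, SE 0.13, adjusted p = 0.147) and Insig2 (-0.42, SE 0.16, adjusted p = 0.304), both from edgeR's fit across all genes. DESeq2's Wald test called 1 member, Srebf2 (adjusted p = 0.047), and limma-voom 0. The log2 fold change was below 0 in 20 of 26 members, with a median of -0.34 against 0.02 over all tested genes. In 11 members both sgBap1 livers were below both NTC livers, as in 19.2% of all tested genes. In 4 members (Lbr, Ebp, Sc5d and Insig1) both were above, and the share of all genes with that pattern was not computed. The lowest values were those of Nsdhl (-0.79, 95% interval -1.64 to 0.05), Cyp51 (-0.73, -1.89 to 0.43), Hmgcs1 (-0.72, -2.01 to 0.57), Mvk (-0.70, -1.50 to 0.10) and Idi1 (-0.66, -2.06 to 0.73), and none was called. Insig1 lay on the other side at 0.50 (-0.13 to 1.12), as did Sc5d at 0.29 (-0.30 to 0.88). The summed hepatocyte markers were also lower in sgBap1-Veh (104200 and 111800 CPM) than in NTC-Veh livers (118400 and 149100 CPM) and the macrophage markers higher (413 and 597 CPM against 200.2 and 306 CPM), with 0 of either list called, and their part was not tested. The member median ranged from -0.55 without the first NTC-Veh liver to -0.11 without the second.

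With CCl4, 0 of 26 members were called between sgBap1 and NTC livers, where 0.253% of all tested genes were. An unadjusted p under 0.05 was reached by Insig2 (log2 -0.43, SE 0.13, adjusted p = 0.197) and Nsdhl (-0.72, SE 0.30, adjusted p = 0.352) in edgeR's fit. These are 2 of 26 members, against 13.4% of all tested genes. DESeq2's Wald test and limma-voom also called 0 members. All but Ggps1 (0.14) and Mylip (0.08) of the 26 members had values below 0, with a median of -0.41 against 0.00 over all tested genes. In 1 member, Ggps1, all 3 sgBap1 livers lay above all 3 NTC livers. Insig2 was the 1 member in which all 3 sgBap1 livers lay below all 3 NTC livers, a pattern of 10.1% of all tested genes. Its log2 fold changes with vehicle and with CCl4 were close (-0.42 and -0.43), but neither was called (adjusted p = 0.304 and 0.197 in edgeR's fit). The 2 comparisons share no liver, but both come from 1 fit with a common estimate of the spread.

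The 3 sgBap1-CCl4 livers were spread widely in these genes. In 24 of 26 members the second sgBap1-CCl4 liver was the lowest of the 3, and in 23 the third was the highest, and the median log2 ratio of the third to the second was 1.08 over the members and -0.00 over all tested genes. The summed level of the members was 2403, 1697 and 3950 CPM in these livers and 3433, 3680 and 3874 CPM in the NTC-CCl4 livers, so that the third lay above and the first and second below all NTC-CCl4 livers. The second liver also stood apart in adipocyte markers, whose 6 genes summed to 289.5 CPM with none at 0 against 0.565 to 15.4 CPM in the other 9 livers, where 2 to 5 of the 6 were at 0, and in stellate cell and fibroblast markers (1342 CPM against 225 to 641 CPM). The part of this in its low member levels was not tested. Without that liver the median of sgBap1-CCl4 against NTC-CCl4 was -0.18, and without the third it was -0.73, with 0 members called either way.

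**Figure D4:**
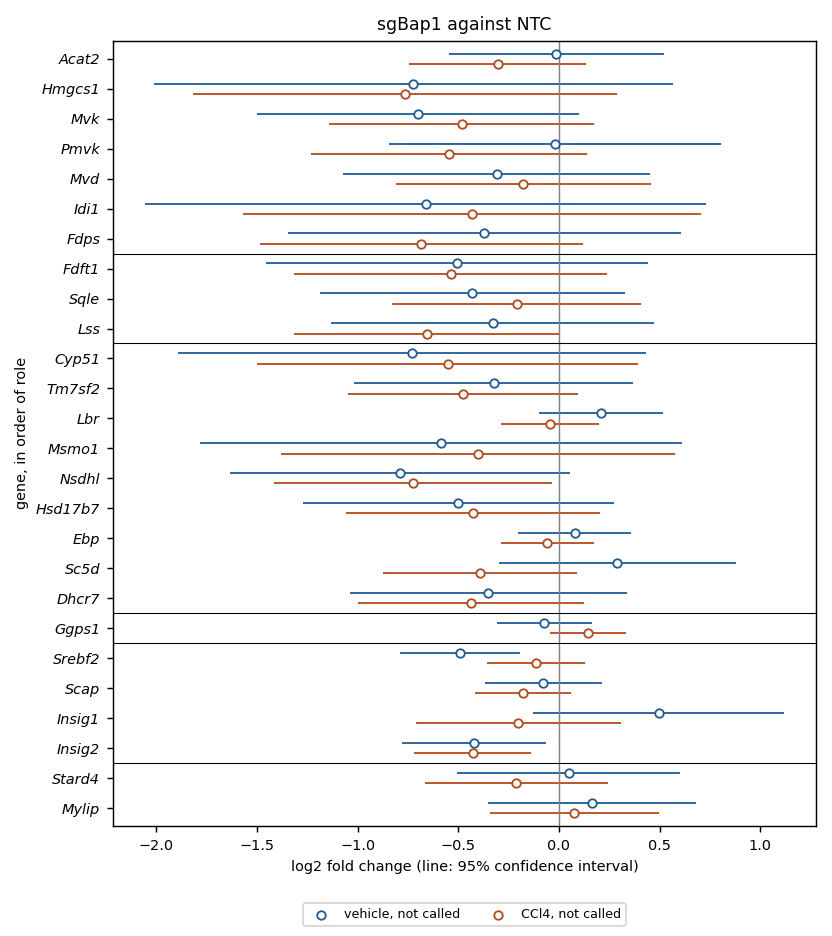
Log2 fold change of sgBap1 against NTC for the 26 tested members (rows, in order of role) in vehicle (blue) and CCl4 livers (brown), with 95% confidence intervals. All points are open, since none has an adjusted p under 0.05. The points lie mostly left of 0 (medians -0.34 and -0.41), and the intervals of Hmgcs1 and Idi1 are the widest.

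The interaction, the CCl4 effect in sgBap1 minus that in NTC livers, was called for 0 of 26 members, as for 0% of all tested genes. None of the members had an unadjusted p under 0.05, which 1796 genes (10.6% of those tested) had. DESeq2's Wald test and limma-voom called 0 members as well. The smallest unadjusted p in edgeR's fit was that of Srebf2 (0.38, 95% interval -0.01 to 0.76, adjusted p = 0.484), followed by Sc5d (-0.68, -1.45 to 0.08, adjusted p = 0.533) and Insig1 (-0.70, -1.50 to 0.11, adjusted p = 0.55). The intervals of the enzymes with wide spread, such as Hmgcs1 (-1.70 to 1.61) and Idi1 (-1.56 to 2.02), are wide in both directions.

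Genes around the pathway were taken from lists set beside it. Of 9 other SREBP2 targets outside the sterol enzymes 7 fell and 1 rose with CCl4 under each guide (medians -0.93 and -1.13). The lowest were Acss2, the cytosolic acetyl-CoA synthetase, at 354.3 ± 99.1 CPM in NTC-Veh and 52.7 ± 4.45 CPM in NTC-CCl4 livers (log2 -2.75, SE 0.20) and Aacs, which activates acetoacetate for the pathway, at 149.9 ± 20.6 and 31.6 ± 8.37 CPM (-2.25, SE 0.21). In sgBap1 livers Acss2 fell by 3.94 (SE 0.21) and Aacs fell by 2.94 (SE 0.21). Of 14 genes of SREBP1 and fatty acid synthesis, the sister branch of the SREBP system, 10 fell in NTC and 14 in sgBap1 livers (medians -1.06 and -2.10). With the guide alone, 3 of these 14 were called higher in sgBap1-Veh livers (Srebf1, Acly and Scd1), against 0.523% of all tested genes called in either direction, and their median was 1.20. The difference from the members, with 0 called and a median of -0.34, was not tested. These 3 calls were lost without the second NTC-Veh or the first sgBap1-Veh liver, where no gene was called. Srebf1, the gene of SREBP1, measured 345 ± 6.94 CPM in NTC-Veh and 646 ± 27.03 CPM in sgBap1-Veh livers (n = 2 each, log2 0.90, SE 0.16, adjusted p = 0.049). Acly, which makes cytosolic acetyl-CoA, measured 399 ± 81.9 and 970.5 ± 33.9 CPM (log2 1.28, SE 0.15, adjusted p = 0.0172).

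Lists of genes that act on SREBPs or on the sterols held calls in both directions, to be read against 27.5% of all tested genes called higher and 26.3% lower in NTC livers, and 29.0% and 27.7% in sgBap1 livers. Of 19 tested genes of SREBP processing and sterol-regulated degradation, 3 rose and 6 fell in NTC and 3 rose and 4 fell in sgBap1 livers, with medians of -0.05 and 0.01. Sec23b and Sec24d, coat proteins of the vesicles that leave the endoplasmic reticulum, rose by 0.84 (SE 0.19) and 0.69 (SE 0.15) in NTC livers. The lowest log2 fold change of this list in NTC livers was -0.79, and more of its genes fell than rose. In the isoprenoid branch after farnesyl diphosphate, 2 of 11 genes rose and 3 fell in NTC and 3 rose and 2 fell in sgBap1 livers (medians -0.04 and -0.02), with Fntb, a farnesyltransferase subunit, at 0.81 (SE 0.15) and 0.71 (SE 0.15). Of 9 LXR targets and efflux genes, Mylip among them, 1 rose and 5 fell in NTC and 1 rose and 4 fell in sgBap1 livers. Abcg5 and Abcg8, which pair into the transporter that moves sterols into bile, fell by 1.69 (SE 0.17) and 1.74 (SE 0.25) in NTC and by 1.85 (SE 0.17) and 2.02 (SE 0.25) in sgBap1 livers, and Abcg1, an exporter prominent in macrophages, rose by 1.46 (SE 0.14) in NTC and by 0.72 (SE 0.14) in sgBap1 livers. Of 12 genes of cholesterol esterification and intracellular transport 3 rose and 4 fell in NTC and 4 rose and 5 fell in sgBap1 livers. Soat1, which esterifies cholesterol in macrophages and other cells, rose from 6.41 ± 0.17 to 29.2 ± 3.54 CPM in NTC livers (log2 2.18, SE 0.17), beside the macrophage markers above (4 of 6 rose in NTC livers), whose part in it was not tested. Lcat, the plasma enzyme that esterifies cholesterol on lipoproteins, fell from 576 ± 29.9 to 231 ± 15.3 CPM (log2 -1.32, SE 0.17).

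**Figure D5:**
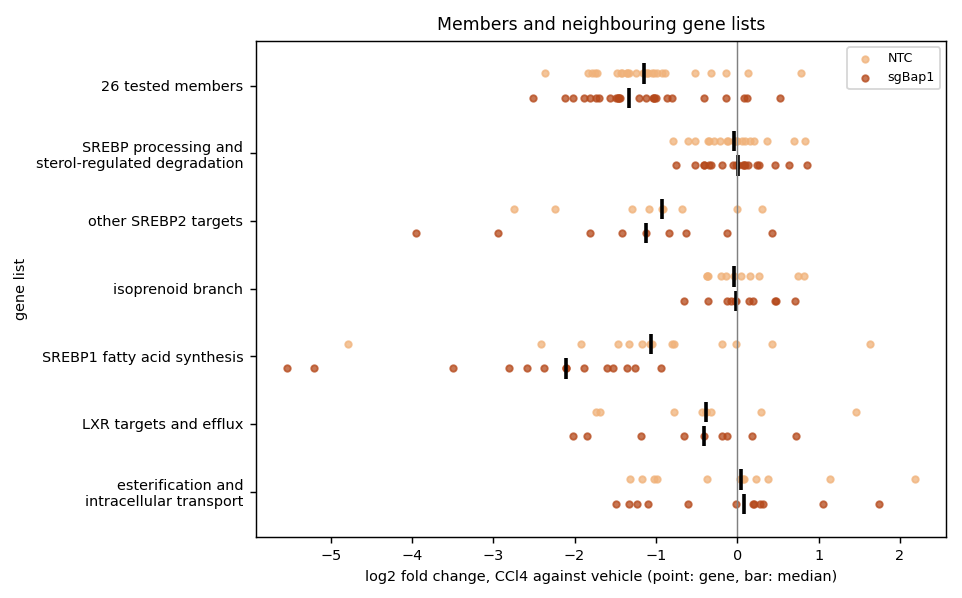
Log2 fold change of CCl4 against vehicle for the 26 tested members and for 6 neighbouring gene lists (rows) in NTC (light) and sgBap1 livers (dark). Points are genes and black bars are medians. The members, the other SREBP2 targets and the SREBP1 genes lie mostly left of 0 (medians -1.15, -0.93 and -1.06 in NTC), while the processing, isoprenoid and esterification lists have medians near 0 (-0.05, -0.04 and 0.05).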

How the data were processed

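RNA from the right liver lobe (TruSeq Stranded mRNA, paired reads of 50 bases) was aligned with STAR 2.7.6a and quantified with Salmon 1.4.0 on GRCm38 by the authors, who deposited estimated counts per gene, not normalized. The library type given to Salmon is not given in the sources used here. Estimated counts were rounded to whole numbers, since 9.22% of values were not whole. Groups came from the labels. No batch is named for the livers, and p-values measure the spread between these samples.

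Genes were filtered with filterByExpr (17015 of 55291 kept), scaled by TMM and fitted over all 10 livers with edgeR 4.0.16 (quasi-likelihood test, 4 groups, no covariate), with Benjamini-Hochberg adjustment per comparison and a threshold of 0.05. Alternatives were DESeq2 size factors, library size alone, other filters, a replicate block, DESeq2 1.42.0, limma-voom (limma 3.58.1), the 2 groups alone and each liver left out. The code was tested on simulated data. Livers of a group differed beyond sampling noise (mean chi-square per gene 15.5 to 90.1), so that each was counted as its own sample. Positions are from GENCODE vM21 and promoters from RefSeq.

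The rule for the members uses no measured value, but earlier results of these data were known when the members and lists were chosen. Values of each liver are given for members called between guides or in the interaction (none), the 8 with the largest called change in NTC-CCl4 against NTC-Veh, and the regulators Srebf2, Scap, Insig1, Insig2, Stard4 and Mylip. Lbr and Ggps1 were added after their values were seen. Of neighbouring lists, up to 3 called genes with the largest change per list and comparison may be named. Some genes of the pathway and uptake are not reported here.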

Additional observations from a re-analysis of the deposited data

Results flagged for a closer look

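Ggps1, the geranylgeranyl diphosphate synthase of the side branch, was flagged because its CCl4 values lay on opposite sides of its vehicle values under the 2 guides. The log2 fold change was -0.14 in NTC livers, where all 3 CCl4 livers lay below both vehicle livers, and 0.076 in sgBap1 livers, where all 3 lay above. The gaps were narrow. The nearest CCl4 and vehicle livers were at 10.91 and 11.0 CPM in NTC and at 11.19 and 11.08 CPM in sgBap1 livers. The share of all genes with this pattern was not computed. Neither was called, and the difference, tested as the interaction in edgeR's fit, was 0.22 (SE 0.14, adjusted p = 0.639). Scaled by library size alone, both values were above 0 (0.33 and 0.56).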

How the results depend on the processing

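The count of members called with CCl4 in NTC livers (22) was 13 with no filter beyond 1 count and 15 with library size alone (12 lower and 3 higher), and ranged from 10 (without the second NTC-Veh liver) to 23 when a liver was left out. In sgBap1 livers (21) it was 14 with no filter, 15 with library size alone (11 lower and 4 higher), and 11 (without the second sgBap1-Veh liver) to 22 when a liver was left out, with 14 without the first sgBap1-CCl4 liver. Library size alone moved the median of all genes to 0.50 in NTC and 0.52 in sgBap1 livers, beside member medians of -0.68 and -0.87. It brought Srebf2 in NTC livers to -0.04 (adjusted p = 0.752), and turned Ggps1 in NTC livers to 0.33 (adjusted p = 0.0283) and Srebf2 in sgBap1 livers to 0.34 (adjusted p = 0.0252). DESeq2's Wald test called 1 member between the guides with vehicle, and the other guide and interaction counts stayed at 0 in the settings run. The cause of these shifts was not tested.

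Same-numbered livers of different groups had correlations of their deviations from group means of -0.149 to 0.102, with 2 of 13 over 0.1. In a group of 2 livers the deviations mirror each other, so these values are not independent. With so few livers they cannot decide whether the replicate numbers pair the livers. With the replicate block 23 members were called in NTC, Cyp51 among them (-1.25, adjusted p = 0.0384), and 21 in sgBap1 livers. Over all genes the block lowered the calls between guides from 89 to 1 with vehicle and from 43 to 3 with CCl4. Those counts were 548 and 480 with DESeq2's Wald test, and 177 and 113 with no filter. With vehicle they were also 47 with library size alone, 25 with limma-voom, 35 with the 2 groups alone and 0 to 150 with a liver left out, and with CCl4 1 to 49 with a liver left out. For the interaction (0) they were 8 with library size alone, 103 with no filter, 411 with DESeq2's Wald test and 0 to 12 with a liver left out. With 2 or 3 livers a group the intervals of many enzymes are wide.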
